A study of Macaca fascicularis with 3 samples.

Results

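The miR-99/100 and miR-125 guide strands are the mature miRNAs of the 5p arm named miR-99a, miR-99b, miR-100, miR-125a and miR-125b. They were chosen by name, and 5 of the 432 mature miRNAs listed for kidney cortex had such a name, all with the suffix -5p. The tissue came from 3 naïve cynomolgus monkeys (Macaca fascicularis) between 2 and 3 years of age, with 1 small RNA library per animal. The labels give no treatment or genotype that distinguishes the animals, so all libraries form 1 group and every comparison is between miRNAs or between animals. The libraries held from 3957188 to 4707892 counts assigned to listed miRNAs. The library of animal 3 stood apart from the others over all miRNAs. More than 2-fold between animals was spanned by 156 of 391 miRNAs with all animals, by 35 of 400 without animal 3, by 92 of 391 without animal 1 and by 124 of 386 without animal 2. Values without animal 3 are therefore given beside the differences between animals. In bulk tissue, fewer cells of a type and less of a miRNA per cell cannot be told apart.

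A miRNA guide strand is loaded into an Argonaute protein and pairs with messenger RNAs mainly through its seed, a short run of bases near its 5′ end, which lowers their translation and stability. miR-125a and miR-125b share a seed and are the vertebrate relatives of lin-4, a regulator of developmental timing in nematodes. They are known to act on LIN28, which blocks the maturation of let-7. miR-99a, miR-99b and miR-100 share another seed and are known for targets in the mTOR and insulin-like growth factor pathways. In mammals the 2 families lie in common genomic clusters with let-7 genes. One cluster holds miR-99a, let-7c and a copy of miR-125b, the next holds miR-100, a copy of let-7a and another copy of miR-125b, and the last holds miR-99b, let-7e and miR-125a. The names miR-125b-5p and let-7a-5p each stand for the product of more than 1 gene copy.

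All 5 guide strands were abundant in kidney cortex and together took 6.59% ± 1.85 (SD, n = 3) of the listed counts. In animals 1, 2 and 3 they summed to 5.12%, 5.98% and 8.66%. The 95% confidence intervals (Wilson) ran from 5.10 to 5.14, from 5.959 to 6.002 and from 8.63 to 8.69 and so did not overlap, but they cover counting error only. The miR-125 strands made up 4.06%, 4.57% and 6.66% of the libraries, and the miR-99/100 strands 1.06%, 1.41% and 2.00%, in the same order of animals. The share was thus lowest in animal 1 and highest in animal 3 for both families.

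miR-125b-5p, known from blood stem cells and smooth muscle, was the most abundant of the 5. It had 92116, 108387 and 151099 counts in animals 1, 2 and 3, which is 21393, 23022 and 38183 CPM (counts per 1000000 listed counts). Animal 3 stood apart from the other two, which lay close together. The mean was 27533 CPM ± 9260 (SD, n = 3), and miR-125b-5p ranked 14, 14 and 7 among the listed miRNAs of animals 1, 2 and 3.

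miR-125a-5p, the other lin-4 relative, had 82583, 106818 and 112604 counts, or 19179, 22689 and 28456 CPM in animals 1, 2 and 3. Its values were spread more evenly over the animals and its coefficient of variation of 19.98% was the lowest of the 5. The mean was 23441 CPM ± 4684 (SD, n = 3), and its rank was 16, 15 and 14.

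miR-100-5p was the highest member of the mTOR-directed family. It had 22779, 27696 and 36079 counts, or 5290, 5883 and 9117 CPM in animals 1, 2 and 3, with a mean of 6763 CPM ± 2060 (SD, n = 3). As with miR-125b-5p, animals 1 and 2 lay near each other and animal 3 above them.

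miR-99a-5p, which differs little in sequence from miR-100-5p, had 14741, 25311 and 25816 counts, or 3423, 5376 and 6524 CPM. Here animal 1 stood below the other two, and the mean was 5108 CPM ± 1568 (SD, n = 3). miR-99b-5p was the lowest of the 5, with 8170, 13323 and 17164 counts or 1897, 2830 and 4337 CPM in animals 1, 2 and 3. Its mean was 3022 CPM ± 1231 (SD, n = 3), and its coefficient of variation of 40.7% was the highest of the 5. Counting error alone, taken as 1 over the square root of the lowest count, came to between 0.329% and 1.11% for these strands. Depth was therefore not what limited the precision of their levels. In the authors' normalized signal miR-99b-5p read 8082, 12666 and 18251, so its lowest and highest animals were the same there.

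**Figure D1:**
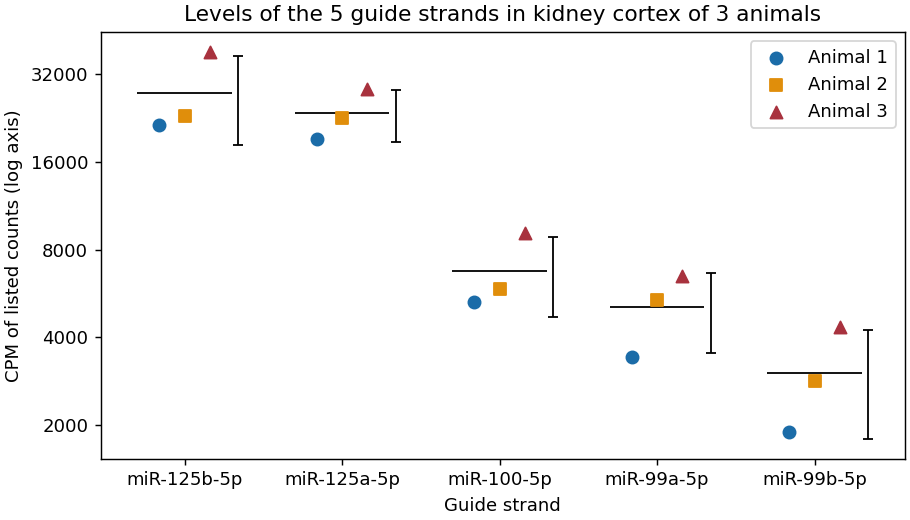
CPM of the 5 guide strands (log axis) in each of the 3 animals. Symbols are single libraries, horizontal lines are means and the bars to their right are ± 1 SD (n = 3). For every strand the symbol of animal 1 is the lowest and that of animal 3 the highest.

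The order of the members was the same in each animal. The miR-125 strands stood above the miR-99/100 strands, with a mean log2 ratio of the summed counts of 1.79 ± 0.13 (SD, n = 3 animals), a ratio between 3.24 and 3.82. Flipping the signs of the 3 ratios in an exact permutation test (two-sided) gave p = 0.25. This is the lowest value possible for 3 animals, so none of the ratios within animals could pass a threshold of 0.05. miR-125b-5p was above miR-125a-5p in 3 of 3 animals. The mean log2 ratio was 0.20 ± 0.21, and the SD was as large as the mean. In animal 2 these neighbours were nearly equal, miR-125b-5p making 50.4% of their joint counts (95% Wilson interval 50.2 to 50.6), against 52.7% in animal 1 and 57.3% in animal 3.

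The largest step in the order lay between the families. miR-125a-5p exceeded miR-100-5p by a mean log2 ratio of 1.82 ± 0.16 (SD, n = 3). Within the miR-99/100 family, miR-100-5p exceeded miR-99a-5p by 0.41 ± 0.26, with 0.13 in animal 2, and miR-99a-5p exceeded miR-99b-5p by 0.79 ± 0.18. Each of these steps was in the same direction in 3 of 3 animals, and the exact sign-flip permutation p, adjusted over the 4 neighbouring pairs, was 0.25 for each. The pairs were taken from the order of mean CPM in these same libraries, so the test gives no independent support for that order. Read counts of different miRNAs also depend on how well each is captured in the library, and the part of this in the order was not tested.

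The proportions within the set varied less than the levels. miR-125b-5p made 41.8%, 38.5% and 44.1% of the members' counts in animals 1, 2 and 3, miR-125a-5p 37.5%, 37.9% and 32.9%, and miR-100-5p 10.34%, 9.84% and 10.53%. The scarcer strands moved more for their size, miR-99a-5p making 6.69%, 8.99% and 7.53% and miR-99b-5p 3.71%, 4.73% and 5.01%. Of the 10 pairs of members, miR-125b-5p and miR-100-5p kept the steadiest ratio. Its log2 value was 2.02, 1.97 and 2.07 in animals 1, 2 and 3, an SD of 0.05 beside a counting error of at most 0.01 in a single animal. The ratio itself stayed between 3.91 and 4.19, while the TMM-scaled levels of the strands, described next, spanned 1.92-fold and 1.85-fold. The least steady pair was miR-125a-5p with miR-99b-5p, members of a single cluster, whose log2 ratio was 3.34, 3.00 and 2.71, an SD of 0.31. These ratios are descriptions, since all pairs share the same 3 libraries.

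The levels were then compared between animals on CPM scaled with TMM factors (trimmed mean of M values, which correct for a few abundant miRNAs taking up a library). All 5 members were lowest in animal 1 and highest in animal 3. Of the 391 miRNAs averaging 10 counts or more, 25.6% had that order. The count was also 5 of 5 with DESeq2 size factors, with library totals and in the authors' normalized signal, where 26.1%, 21.5% and 20.2% of all miRNAs had the order. With animal 3 left out, all 5 members were higher in animal 2 than in animal 1, as were 54.8% of 400 miRNAs. With animal 1 left out, all 5 were higher in animal 3 than in animal 2, as were 49.1% of 391 miRNAs. The 5 strands come from shared clusters and near-identical sequences, so they are not 5 independent observations of a difference between animals.

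On the log2(TMM-scaled CPM + 1) scale, animal 3 exceeded animal 1 by 0.94 for miR-125b-5p, by 0.67 for miR-125a-5p, by 0.89 for miR-100-5p, by 1.03 for miR-99a-5p and by 1.30 for miR-99b-5p. The median of the members was 0.94, against -0.02 over the 391 miRNAs. Over the 81 miRNAs with a mean of at least 1000 CPM, the median was 0.14. TMM scaling itself raised the median of all miRNAs in animal 3 over animal 1 by 0.10 relative to library totals, and in animal 3 over animal 2 by 0.16. Between animals 2 and 1 the strands differed by 0.05 for miR-125b-5p, 0.10 for miR-100-5p, 0.19 for miR-125a-5p, 0.52 for miR-99b-5p and 0.59 for miR-99a-5p. The miR-99a and miR-99b strands were thus already apart in animals 1 and 2, whereas miR-125b-5p and miR-100-5p were apart mainly in animal 3.

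**Figure D2:**
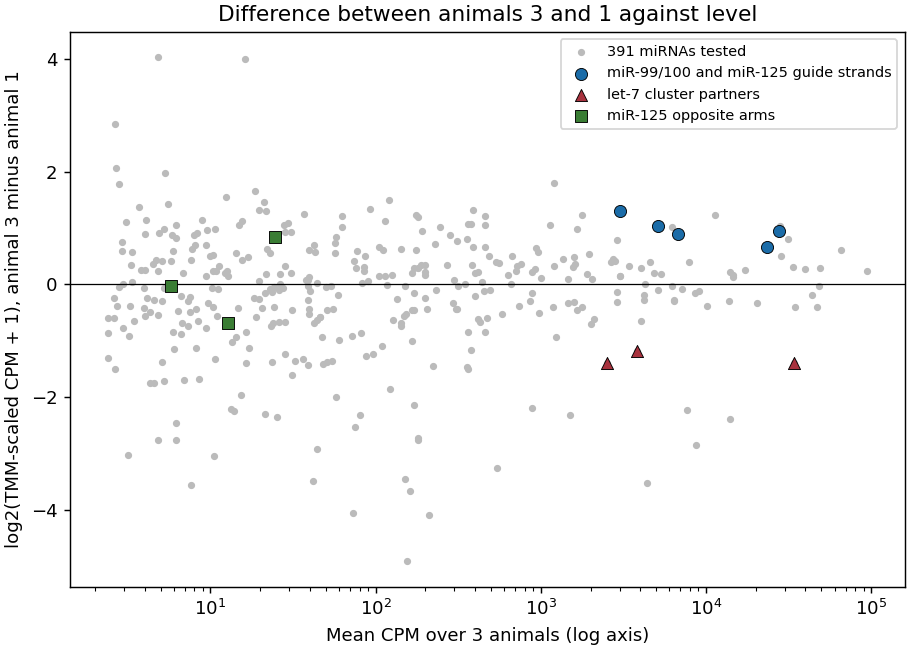
Difference between animal 3 and animal 1 in log2(TMM-scaled CPM + 1) against the mean CPM (log axis) for 391 miRNAs, each point being 1 miRNA. The 5 guide strands lie between 0.67 and 1.30, and the 3 let-7 strands of the same clusters lie between -1.39 and -1.18.

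The span from the lowest to the highest animal on TMM-scaled CPM was 2.46-fold for miR-99b-5p, 2.05-fold for miR-99a-5p, 1.92-fold for miR-125b-5p, 1.85-fold for miR-100-5p and 1.59-fold for miR-125a-5p. Thus 2 of 5 members spanned more than 2-fold, beside 39.9% of the 391 miRNAs, a share near the background. The median span was 1.92-fold over the members and 1.71-fold over the 391 miRNAs. Among the 81 miRNAs with a mean of at least 1000 CPM, where all members lie, 23.5% spanned more than 2-fold. The median span of these 81 was 1.40-fold. As over all miRNAs, spans were narrower without animal 3, at 1.03-fold for miR-125b-5p and 1.07-fold for miR-100-5p. The span of miR-99a-5p fell to 1.36-fold without animal 1, and that of miR-99b-5p to 1.43-fold without animal 3 and 1.71-fold without animal 1.

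Homogeneity of the counts was tested by chi-square, and p-values were adjusted (Benjamini-Hochberg) over the 391 miRNAs. The test called 5 of 5 members different between the libraries, beside 80.6% of all miRNAs. It called all 81 miRNAs of at least 1000 CPM, so at this depth a call does not set the members apart. It compares the libraries against counting error and not conditions. The highest adjusted p of a member in any of the fits that left out an animal was 3.57e-13, for miR-100-5p between animals 1 and 2.

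The let-7 strands of the same clusters were lowest in animal 3, where the other strands were highest. let-7c-5p, the partner of miR-99a and miR-125b, had 14543, 14113 and 4740 counts in animals 1, 2 and 3, and was thus far lower in animal 3. let-7a-5p had 214356, 160438 and 70043 counts, the lowest again in animal 3. let-7e-5p, the partner of miR-99b and miR-125a, had 19870, 23305 and 7482 counts. The 3 let-7 strands together took 5.78%, 4.203% and 2.08% of the listed counts in animals 1, 2 and 3. All 3 of them were lowest in animal 3, beside 41.9% of the 391 miRNAs. Strands with other let-7 names were also lower in animal 3 than in animal 1. On the log2(TMM-scaled CPM + 1) scale the difference was -0.66 for let-7b-5p, -0.32 for let-7d and -0.33 for let-7g-5p, all lowest in animal 3. It was -0.40 for let-7f-5p and -0.60 for let-7i-5p, both lowest in animal 2. For let-7c-5p, let-7a-5p and let-7e-5p it was -1.39, -1.39 and -1.18. The lower level was thus larger in the cluster partners but not confined to them. Reads of near-identical let-7 names may be divided between them in a way that the tables do not state.

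Within animals, where scaling plays no part, the ratio of each cluster member to its let-7 partner was lowest in animal 1 and highest in animal 3. The log2 ratio of miR-99a-5p over let-7c-5p was 0.02, 0.84 and 2.45 in animals 1, 2 and 3, so the fold between the strands was 1.01 in animal 1 and 5.45 in animal 3. The log2 ratio of miR-100-5p over let-7a-5p was -3.23, -2.53 and -0.96, let-7a-5p being the higher strand in every animal. For miR-99b-5p over let-7e-5p it was -1.28, -0.81 and 1.198, so which strand was higher changed in animal 3. For miR-125a-5p over let-7e-5p it was 2.06, 2.20 and 3.91, and for miR-125b-5p over let-7c-5p it was 2.66, 2.94 and 4.99. miR-125b-5p stood below let-7a-5p in animals 1 and 2 and above it in animal 3, with log2 ratios of -1.22, -0.57 and 1.11. By contrast, over all 3 animals the ratios between the miR-125 and miR-99/100 strands of a cluster stayed within narrower bounds. Their SD over animals was 0.05, 0.29 and 0.31 in the clusters of miR-100, miR-99a and miR-99b, against 1.03 to 1.32 for the 6 ratios to let-7. Without animal 3 these SDs were 0.03, 0.39 and 0.24, against 0.10 to 0.58 for the ratios to let-7. The ranges then overlapped, so the contrast rests on the library of animal 3. The cause of the divergence was not tested.

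**Figure D3:**
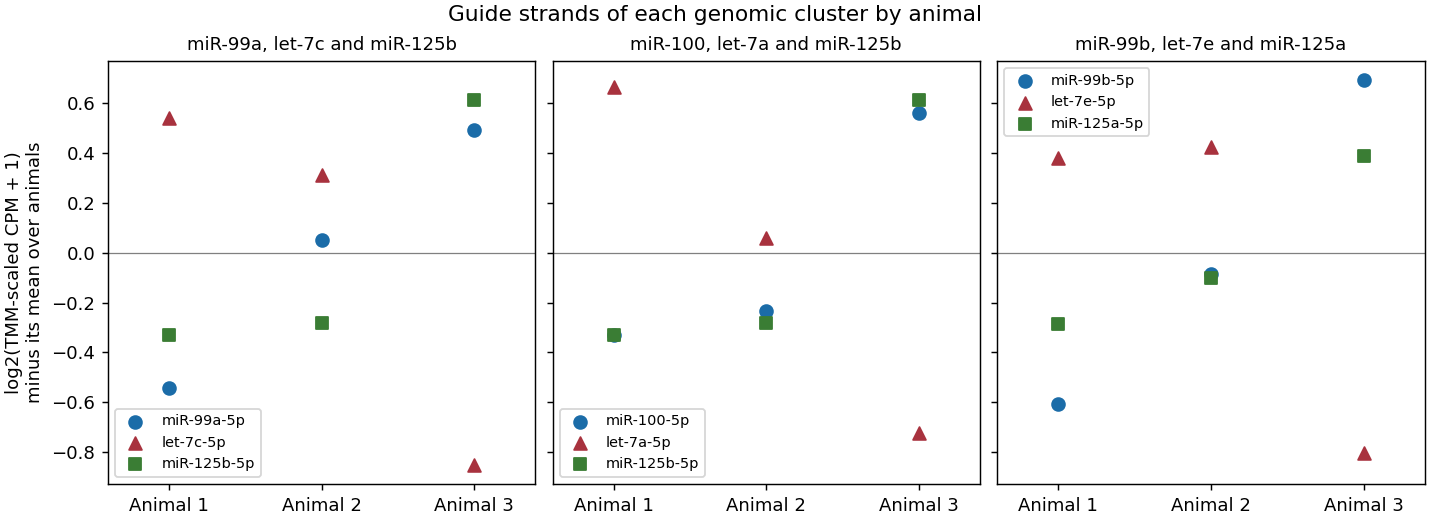
Level of each guide strand in each animal as log2(TMM-scaled CPM + 1) minus its own mean over the 3 animals, in 1 panel per genomic cluster. Each symbol is 1 library. In animal 3 the let-7 strand lies lowest in every panel, and the miR-99/100 and miR-125 strands lie above 0.

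The opposite arms give a second readout of the same hairpins, since both arms come from 1 precursor. Those of miR-125a and miR-125b were counted, whereas no 3p arm of miR-99a, miR-99b or miR-100 was among the 432 listed names. miR-125a-3p had 74, 54 and 38 counts in animals 1, 2 and 3, and the 3p arm made 0.0895% (95% Wilson interval 0.0713 to 0.112), 0.0505% (0.0387 to 0.0659) and 0.0337% (0.0246 to 0.0463) of the hairpin's counts. The interval of animal 1 lay above those of animals 2 and 3, which overlapped each other. The guide was above its opposite arm in 3 of 3 animals, the log2 ratio averaging 10.84 ± 0.70 (SD), and the exact sign-flip permutation p, adjusted over the 2 hairpins, was 0.25. Between animals, miR-125a-3p was highest in animal 1, where miR-125a-5p was lowest. The homogeneity test called it different between the libraries, with an adjusted p of 0.0123 (chi-square, Benjamini-Hochberg).

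The 3p arms of miR-125b have a name for each gene copy, which the shared guide strand does not. miR-125b-2-3p, from the copy clustered with miR-99a, had 71, 137 and 112 counts in animals 1, 2 and 3. miR-125b-1-3p, from the copy clustered with miR-100, had 24, 32 and 20 counts. The second copy made 74.7% (95% Wilson interval 65.2 to 82.4), 81.1% (74.5 to 86.3) and 84.8% (77.8 to 90.0) of the 3p counts, so it was the larger in every animal and the 3 intervals overlapped. The share of 3p counts need not equal the share of guide strands from each copy. On TMM-scaled CPM, miR-125b-2-3p was lowest in animal 1, at 16.3 against 27.7 and 30.1 in animals 2 and 3. The homogeneity test called it different between the libraries (chi-square, adjusted p 0.000137). The highest animal depended on the scaling, since unscaled CPM were 16.5, 29.1 and 28.3 for miR-125b-2-3p. Animal 1 was lowest on both scales, as it was for all 5 guide strands. miR-125b-1-3p was not called different by this test (adjusted p 0.777), and its counting error, up to 22.4% in a single animal, was as large as its span of 1.202-fold between animals. miR-100-5p spanned 1.85-fold. Together the 3p arms made 0.103%, 0.156% and 0.0873% of the miR-125b counts.

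The opposite arms of the let-7 partners were set beside them after their values were seen. let-7c-3p had 32, 43 and 47 counts in animals 1, 2 and 3, and let-7a-2-3p, from the let-7a copy clustered with miR-100, had 40, 43 and 51. Neither was lowest in animal 3, unlike their 5p strands, and the homogeneity test called neither different between the libraries (chi-square, adjusted p 0.0513 and 0.0616). let-7e-3p had 178, 248 and 155 counts (adjusted p 0.0801). On TMM-scaled CPM it stood at 40.9, 50.1 and 41.7, and on unscaled CPM at 41.3, 52.7 and 39.2, so whether animal 1 or animal 3 was lowest depended on the scaling. let-7e-5p stood at 4565, 4706 and 2011 TMM-scaled CPM. let-7a-3p, shared by other let-7a copies, had 983, 1287 and 789 counts and was lowest in animal 3, with an adjusted p of 1.63e-05. The 3p arm therefore made 0.220%, 0.304% and 0.982% of the let-7c counts in animals 1, 2 and 3, and 0.888%, 1.05% and 2.03% of the let-7e counts. For both hairpins the interval of animal 3 lay above those of the other animals. On TMM-scaled CPM the 5p strands spanned 2.62-fold for let-7c, 2.34-fold for let-7e and 2.62-fold for let-7a. The 3p strands spanned 1.72-fold for let-7c-3p, 1.22-fold for let-7e-3p, 1.58-fold for let-7a-2-3p and 1.23-fold for let-7a-3p.

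**Figure D4:**
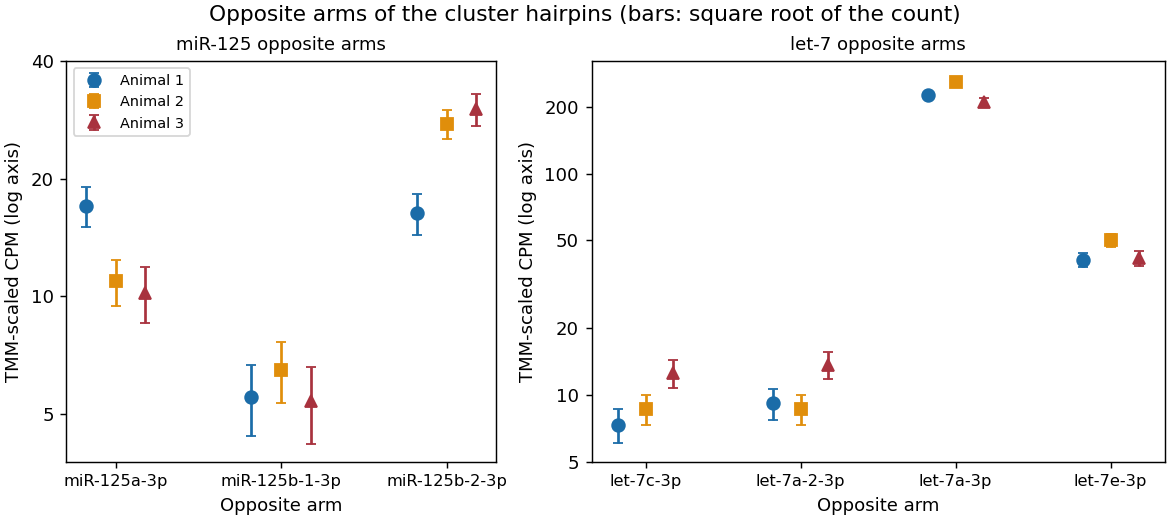
TMM-scaled CPM (log axis) of the opposite arms of the miR-125 hairpins and of the let-7 hairpins of the same clusters in each animal. Each symbol is 1 library, and bars are the square root of its count on the same scale. miR-125b-2-3p is lowest in animal 1, and let-7c-3p and let-7a-2-3p are highest in animal 3.

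Among other miRNAs, miR-10a-5p and miR-10b-5p resemble miR-99/100 in sequence. miR-10a-5p had 33034, 29756 and 38045 CPM in animals 1, 2 and 3, and miR-10b-5p had 91547, 89032 and 100801 CPM. They too were highest in animal 3, but their lowest value was in animal 2. The miR-10 strands exceeded the miR-99/100 strands in every animal, with 12.5%, 11.9% and 13.9% of the listed counts.

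The miRNAs whose profile over the animals was closest to that of the summed miR-99/100 strands, among 174 with a mean of at least 100 CPM, were miR-145-5p, miR-425 and miR-484. The root mean square difference of their centred log2(TMM-scaled CPM + 1) values was 0.01, 0.02 and 0.04. miR-145-5p had 19578, 25230 and 40398 TMM-scaled CPM in animals 1, 2 and 3. Its opposite arm miR-145-3p had 349, 252 and 278, and miR-143-3p, from the same cluster, had 7982, 4733 and 6501, so both were highest in animal 1. Closest to the summed miR-125 strands were miR-452-5p, miR-196a-5p and miR-20b-5p, with differences of 0.05, 0.07 and 0.07. With 3 libraries a profile consists of few differences, so a close match is a description only.

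Lists of miRNAs that mark cell types were summed in each library. The vascular list, made of miR-126, miR-143 and miR-145, stood at 78057, 71708 and 85190 CPM in animals 1, 2 and 3, and the kidney list of miR-204, miR-192, miR-215 and miR-194 at 57055, 61982 and 53073 CPM. On TMM-scaled CPM the kidney list stood at 56440, 58924 and 56435, so animals 1 and 3 were nearly equal. Within the vascular list the members differed. miR-145-5p had the order of the guide strands, with 19578, 25230 and 40398 TMM-scaled CPM in animals 1, 2 and 3. miR-126, with 49305, 37953 and 43362, was highest in animal 1, as were miR-143-3p and miR-145-3p. The scarce miR-143-5p, at 9, 5 and 179 counts, was highest in animal 3. The epithelial list was found through miR-200a, miR-200c and miR-429, with miR-200b and miR-141 not among the listed names. Its sum was lowest in animal 3, where the guide strands were highest, at 20903, 20653 and 16281 CPM in animals 1, 2 and 3. Its most abundant names were miR-200a-3p, at 51394, 47515 and 33894 counts, and miR-429-3p, at 38396, 49389 and 30177. The former was highest in animal 1 and the latter in animal 2. The erythroid list was highest in animal 3, at 5025, 4374 and 5765 CPM. Within it miR-451, at 18812, 18363 and 21313 counts, was highest in animal 3. miR-144, at 626, 403 and 346 TMM-scaled CPM, was lowest there. The leucocyte list stood at 1621, 1727 and 1518 CPM, the muscle list at 562, 399 and 363, and the neuron list at 75.01, 98.98 and 70.25 in the same order. On TMM-scaled CPM the leucocyte list stood at 1603, 1642 and 1614, the muscle list at 555, 380 and 386, and the neuron list at 74.2, 94.1 and 74.7. On that scale animal 3 was lowest in none of them. The muscle sum was mainly miR-1-3p, at 537, 357 and 349 TMM-scaled CPM. The scarcer miR-133a, at 4.36, 4.64 and 8.87, and miR-133b-3p, at 9.88, 13.9 and 21.5, rose from animal 1 to animal 3. miR-206 was also highest in animal 3. The neuron list was found through miR-9 alone under exact matching. The near names miR-124a-3p, with 206, 151 and 144 counts, and miR-122a-5p, for the liver list, with 38, 33 and 16 counts, stayed outside the lists. Of the 7 lists with a listed name, 0 had a sum that was lowest in animal 1 and highest in animal 3 as the guide strands were. Each sum mostly follows its most abundant names. Single names did have that order, among them miR-145-5p, miR-133a, miR-133b-3p and miR-200a-5p, the last at 43.6, 57.8 and 89.8 TMM-scaled CPM. The part of cell makeup in their levels was not tested.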

How the data were processed

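The deposited table of raw counts gives whole-number read counts of mature miRNAs. Mapping by the authors allowed 0 mismatches and kept miRNAs of at least 15 reads, per the file headers, and the smallest sum over libraries was 15. The aligner, trimming and treatment of reads matching several names are not given in the sources used here. The authors' normalized signal was made with edgeR, per the file headers and the submitters' processing notes, and was used for spans, directions and examples only. Per the labels, each library was made from 12 ng of enriched RNA. Further columns of per-sample values numbered 0.

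CPM and shares use each library's total of listed counts, and a floor of 3 counts was 0.637 to 0.758 CPM. TMM factors came from edgeR 4.0.16 (R 4.3.3) and alternative size factors from DESeq2 1.42.0. With 1 group no contrast could be fitted, so libraries were compared by a chi-square test of homogeneity against TMM effective sizes for miRNAs averaging 10 counts or more, adjusted by Benjamini-Hochberg at 0.05. The procedure was tried on simulated counts with planted changes, counting error only and library totals as sizes. Its behaviour under a wider spread between libraries was not tested. Ratios within animals used a pseudocount of 1 and an exact sign-flip permutation test. Reads carry no described molecular identifiers, so intervals cover counting error only. The p-values of the homogeneity test set the libraries against counting error and do not measure the size of the spread between them.

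The miRNAs named are the members, their opposite arms, let-7c, let-7a and let-7e, miR-10a and miR-10b, and the 3 closest profiles for each family. Marker lists were vascular, kidney, epithelial, erythroid, leucocyte, muscle, neuron and liver, the last matched only by the near name miR-122a-5p, which was not summed. A rule on other miRNAs sharing a seed could not be applied, as mature sequences were not used here. The members and lists were chosen with earlier results of these data known. The let-7 opposite arms, the comparison of miR-125b copies, the limit of 1000 CPM and the direction counts were added after seeing the data.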

Additional observations from a re-analysis of the deposited data

How the results depend on the processing

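Of the recalculated values, 119 kept their direction and stayed within the spread between animals or, for counts, within 1.5 times, and 6 did not. Many could not have moved that far, because means with 1 of 3 animals left out stay within an SD by construction, and p-values within animals cannot pass a threshold. The number of members spanning more than 2-fold, 2 with TMM scaling, was 1 with library totals and 1 in the authors' normalized signal, where 145 of 391 miRNAs did so under each. It ranged from 0 to 3 when an animal was left out, with 0 both without animal 1 and without animal 3, where 92 of 391 and 35 of 400 miRNAs did so, and 3 without animal 2, beside 124 of 386. With an animal left out, the mean log2 ratio of miR-125b-5p over let-7a-5p, -0.23 with all animals, ranged from -0.89 to 0.27, and that of miR-99b-5p over let-7e-5p, -0.30 with all, from -1.04 to 0.20. Both were above 0 without animal 1 only, since in both pairs the animals lay on different sides of 0. The homogeneity test called 5 of 5 members under each scaling, filter and left-out animal tried, beside 312 to 317 of 391 miRNAs under the scalings, 328 of 432 with no filter, 245 of 259 at a mean of at least 100 counts, and 255 of 391, 291 of 386 and 237 of 400 without animals 1, 2 and 3. Depth limits the 3p arms, at 20 to 137 counts for those of miR-125, and not the guide strands. No paired analysis was possible because all libraries form 1 group, so that pairing enters only through the ratios within animals.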
